A study of Danio rerio with 16 samples.

Results

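The zebrafish genes mpx, lyz, npsn, ncf1, mpeg1, mfap4, CD68, csf1ra, coro1a and lcp1 are used to mark the phagocytes of the innate immune system, and they were taken by symbol from the count tables of this series. All 10 symbols were found among the 31452 genes of the tables, and all 10 passed the filter on low counts that left 21650 genes for testing. RNA came from whole embryos of ABTL zebrafish injected 4 days after fertilization, in the caudal aorta, each with 1 nl of either human recombinant insulin or, for controls, phosphate-buffered saline (PBS). Embryos of both treatments were taken 0.5 or 4 hours post injection (hpi), which makes 4 groups of 4 libraries, and a library held a pool of 10 embryos. The insulin dose is not stated in the labels used here. Control embryos were also injected, so an uninjected level is not given by these groups. By its title the study asked about insulin excess, resistance to insulin and a dampened immune response.

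Neutrophils and macrophages are the first leukocytes of the zebrafish larva and circulate before lymphocytes mature. Neutrophils carry granules with peroxidase, lysozyme and proteases, and on activation they assemble an NADPH oxidase that makes superoxide. Macrophages engulf particles into lysosomes and depend on signals through the colony stimulating factor receptor. In RNA of whole embryos, a lower level of a marker can come from fewer marked cells or from less RNA per cell, and these cannot be told apart here.

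Library totals ran from 6535173 to 9628705 counts. Levels are counts relative to the scaled library size (CPM), given as mean ± SD over 4 libraries, and changes are log2 ratios with a standard error (SE). This SE is approximate, being the size of the log2 ratio divided by the square root of the F statistic of its test. Tests were edgeR's quasi-likelihood test on all 16 libraries, with p-values adjusted by Benjamini-Hochberg across the 21650 genes and a threshold of 0.05. At 0.5 hpi, PBS replicate 1 and the first pair of insulin replicates stood apart from the other 12 libraries, as did insulin replicate 1 of 4 hpi. Their wdr90 level was 2.75 to 4.88 CPM where the others had 32.4 to 95.7 CPM, and for si:dkey-15h8.1 the ranges were 2.15 to 3.04 and 94.1 to 129 CPM; neither gene is a phagocyte marker. A pair of PBS libraries of 0.5 hpi, replicates 2 and 3, differed from each other in 89 of 22287 genes, against 710 to 9655 for the other pairs of a group. By chi-square per gene this pair (2.74) was not the closest, since the other pairs ran from 2.40 to 26.8. The 10 marker genes were present in every library with 15 to 902 counts, so the cells they mark were sampled, though a share of cells is not given by these counts.

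At 4 hpi, mfap4, CD68 and coro1a were higher and ncf1 was lower after insulin than after PBS. These 4 of 10 markers passed where 28.6% of all genes tested did, with 3 higher against 14% of all genes and 1 lower against 14.6%. The median log2 change of the markers was 0.45, beside 0.01 over all genes tested. At 0.5 hpi 1 of the 10 had an unadjusted edgeR p under 0.05, as did 2809 of the 21650 genes. After adjustment 0 of the 10 passed by edgeR, and 0 by the DESeq2 Wald test or limma voom, where 0.388% of all genes passed by edgeR. That share moved with the libraries used, from 84 genes called to 987 without PBS replicate 1, 10 without PBS replicate 2 and 2844 without the 4 libraries that stand apart, and 0 of the 10 markers passed in each. The median change at 0.5 hpi was -0.10, beside 0.02 over all genes. In PBS embryos between 0.5 and 4 hpi, ncf1 rose while mpx, npsn and CD68 fell, which is 4 of 10 where 13.6% of all genes passed. Higher calls took 7.96% and lower calls 5.65% of all genes in that comparison, and the median change of the markers was -0.54 beside -0.01 over all genes. In insulin embryos over the same time 0 of the 10 passed by edgeR, where 2.92% of all genes did, and 0 by DESeq2 or limma voom. There 0 of the 10 had an unadjusted edgeR p under 0.05, where 3652 of the 21650 genes did. The comparisons share libraries (PBS at 4 hpi enters both the insulin effect at 4 hpi and the change over time in PBS), so they are not independent of each other.

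**Figure D1:**
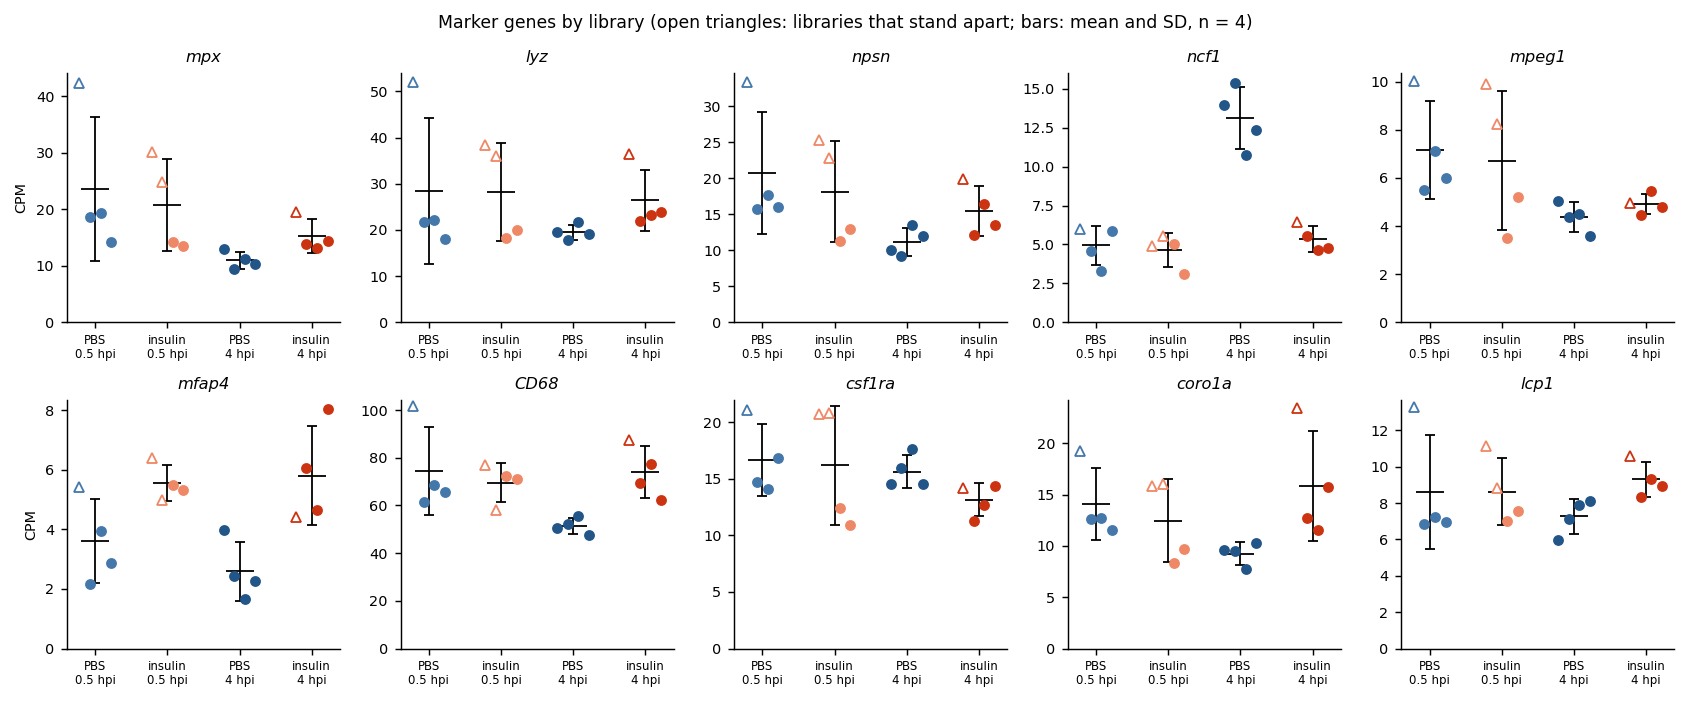
Level of each marker gene in CPM (vertical axes, each starting at 0) in the 4 libraries of each group, with the mean and SD as bars and the 4 libraries that stand apart as open triangles. The 4 PBS libraries at 4 hpi lay above all others for ncf1 (10.8 to 15.4 CPM), and PBS replicate 1 at 0.5 hpi gave the highest level of mpx, lyz, npsn, mpeg1, CD68, csf1ra and lcp1.

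**Figure D2:**
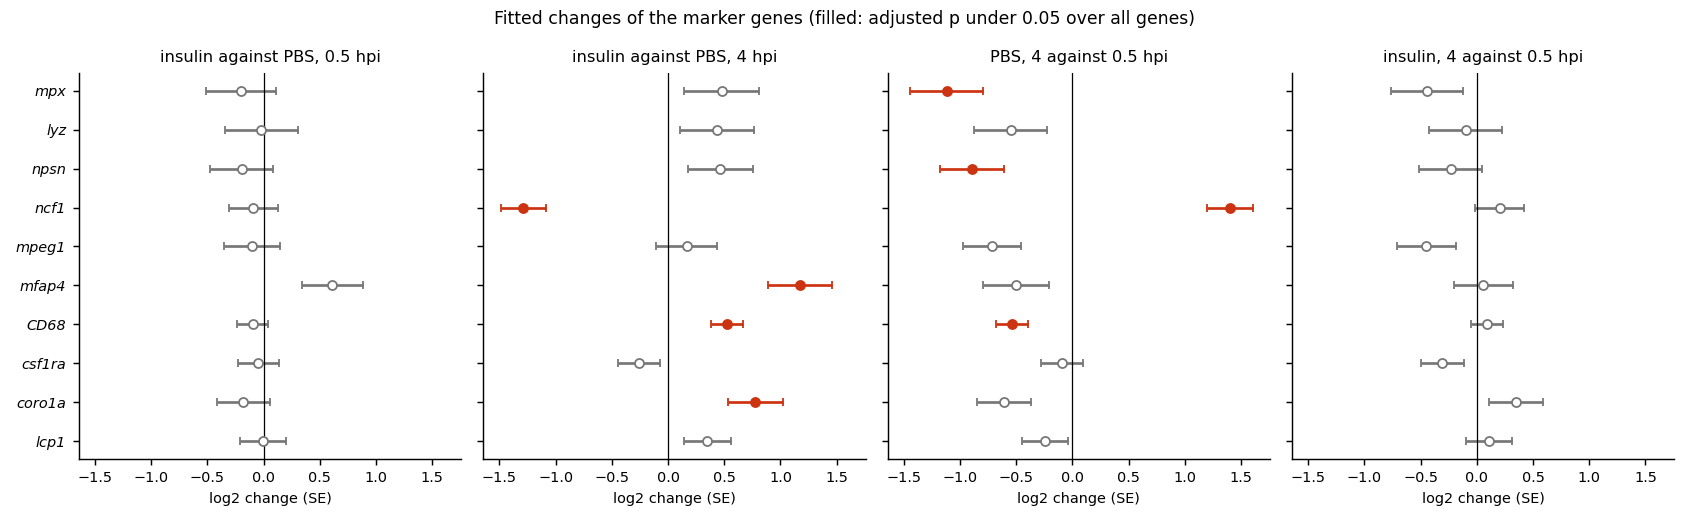
Fitted log2 change of each marker gene with its SE (horizontal axes) in 4 comparisons, where filled points have an adjusted p under 0.05 over all genes tested. At 4 hpi ncf1 (-1.29) lies opposite to mfap4 (1.17), coro1a (0.78) and CD68 (0.53), and no point is filled for insulin against PBS at 0.5 hpi or for the change over time in insulin.

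The gene ncf1 (ENSDARG00000033735, chromosome 5) encodes the organizer subunit that moves to the membrane to start the phagocyte NADPH oxidase. It stood at 5.98, 4.58, 3.29 and 5.89 CPM in PBS replicates 1 to 4 at 0.5 hpi and at 4.89, 5.57, 5.03 and 3.10 CPM in the insulin libraries of that time. At 4 hpi it stood at 13.96, 15.4, 10.8 and 12.4 CPM in PBS and at 6.44, 5.53, 4.66 and 4.79 CPM in insulin. The PBS libraries at 4 hpi were thus all above the other 12, and the other 3 groups overlapped each other. In order of their means the groups were PBS at 4 hpi (13.1 ± 1.99), insulin at 4 hpi (5.35 ± 0.82), PBS at 0.5 hpi (4.93 ± 1.27) and insulin at 0.5 hpi (4.65 ± 1.07).

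In PBS embryos ncf1 rose with time by a log2 of 1.40 (SE 0.20, edgeR adjusted p = 0.000178). In insulin embryos its change over time was 0.20 (SE 0.22, edgeR adjusted p = 0.693). Insulin against PBS gave -0.09 (SE 0.22, adjusted p = 0.911) at 0.5 hpi and -1.29 (SE 0.20, adjusted p = 0.000131) at 4 hpi, both by edgeR. The difference between these effects was -1.20 (SE 0.30, edgeR adjusted p = 0.0148), and ncf1 was the 1 marker of 10 to pass in that test, where 9.59% of all genes passed (3.83% higher and 5.76% lower). Without the 4 libraries that stand apart, the change at 4 hpi was -1.38, the change over time in PBS 1.501 and the difference between effects -1.18 (edgeR adjusted p = 0.0191 for the last). The lane 5 libraries, which are PBS replicates 2 to 4 and insulin replicates 1 and 3 at 4 hpi, gave -1.22 (adjusted p = 0.0143) among themselves.

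Further subunits of the same oxidase were read in a list of 5 genes with ncf1. In this list ncf1 was the 1 gene that passed, lower with insulin at 4 hpi and higher over time in PBS. Of all genes tested, 14.6% were lower in the former comparison and 7.96% higher in the latter. The membrane subunits are cyba and cybb, ncf4 is a cytosolic partner, and rac2 is the small GTPase that completes the complex in phagocytes. Their log2 changes with insulin at 4 hpi were -0.28 for cyba, -0.16 for cybb, 0.26 for ncf4 and 0.25 for rac2, with edgeR adjusted p from 0.251 to 0.429. The median over the 5 genes was -0.16. For cybb, the catalytic subunit, the 4 hpi libraries held 14.2 ± 1.26 CPM in PBS and 12.7 ± 1.75 CPM in insulin, with overlapping ranges of 12.97 to 15.4 and 10.3 to 14.5 CPM. The rac2 libraries held 19.8 ± 0.79 CPM in PBS and 23.6 ± 3.98 CPM in insulin at 4 hpi. The changes of these other 4 over time in PBS ran from -0.36 for rac2 to 0.27 for cybb, and none passed (edgeR adjusted p from 0.149 to 0.521). Whether ncf1 differed from these subunits in its response was not tested.

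**Figure D3:**
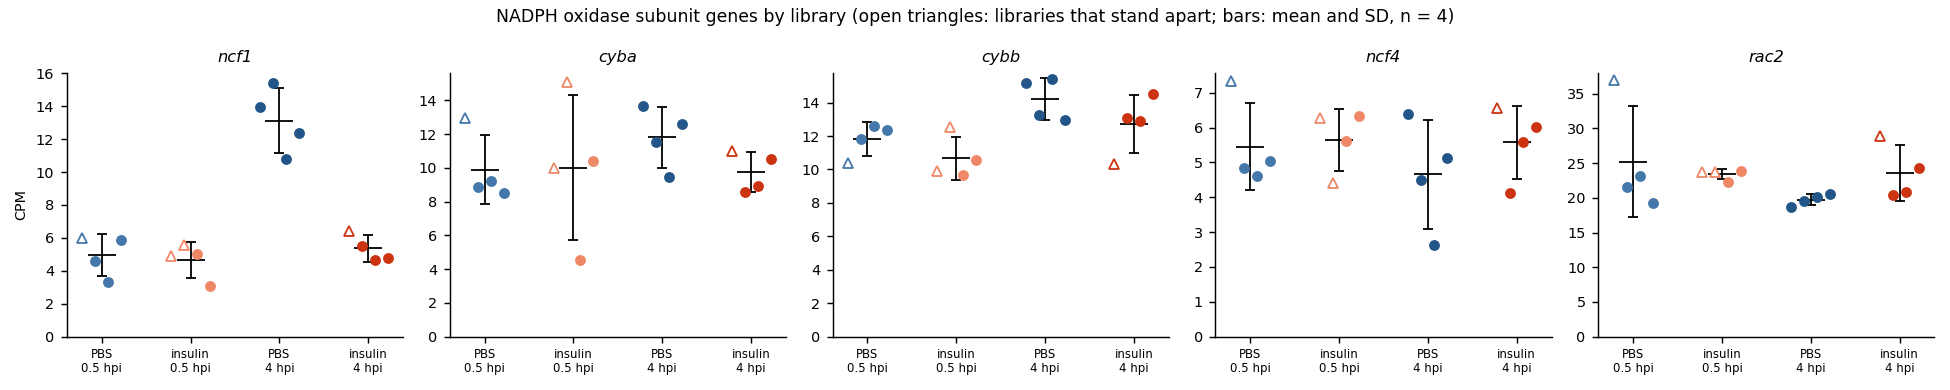
Level in CPM (vertical axes from 0) of the 5 NADPH oxidase subunit genes in the 4 libraries of each group, with mean and SD as bars and the libraries that stand apart as open triangles. The PBS libraries at 4 hpi separate from the rest for ncf1, while the 4 hpi ranges of cybb in PBS (12.97 to 15.4 CPM) and insulin (10.3 to 14.5 CPM) overlap.

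The granule genes are mpx, the myeloperoxidase of zebrafish neutrophils, lyz, the lysozyme that breaks bacterial walls, and npsn, the astacin-family protease nephrosin. All 3 had their lowest mean in PBS at 4 hpi and their highest in PBS at 0.5 hpi. They differed with insulin at 4 hpi by log2 changes of 0.43 to 0.48, and none of them passed.

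For mpx (ENSDARG00000019521, chromosome 10) PBS replicates 1 to 4 held 42.4, 18.6, 19.3 and 14.2 CPM at 0.5 hpi, and 12.9, 9.38, 11.2 and 10.4 CPM at 4 hpi. The insulin replicates held 30.1, 24.8, 14.3 and 13.5 CPM at 0.5 hpi, and 19.6, 13.9, 13.1 and 14.4 CPM at 4 hpi. Every PBS library at 4 hpi lay below every library of the other 3 groups, which overlapped one another. The groups were ordered PBS at 0.5 hpi (23.6 ± 12.7), insulin at 0.5 hpi (20.7 ± 8.12), insulin at 4 hpi (15.2 ± 2.96) and PBS at 4 hpi (10.96 ± 1.495). With insulin at 4 hpi the log2 change was 0.48 (SE 0.33, edgeR adjusted p = 0.296), with all 4 insulin libraries above all 4 PBS libraries, an order that 33.5% of all genes tested showed in one direction or the other.

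Between the PBS times mpx fell by 1.12 on the log2 scale (SE 0.32, edgeR adjusted p = 0.0327). That size rested on PBS replicate 1 at 0.5 hpi, without which the change was -0.68 (edgeR adjusted p = 0.0931). The adjusted p was also above 0.05 without any 1 of the PBS replicates at 4 hpi (edgeR, 0.0540, 0.0932, 0.0654 and 0.0767 without replicates 1 to 4). Without all 4 libraries that stand apart, mpx fell by 0.67 and passed (edgeR adjusted p = 0.00103).

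For npsn (ENSDARG00000010423, chromosome 7) PBS replicates 1 to 4 held 33.4, 15.7, 17.6 and 16.0 CPM at 0.5 hpi, and 9.97, 9.17, 13.5 and 12.02 CPM at 4 hpi. The insulin replicates held 25.3, 22.9, 11.3 and 13.01 CPM at 0.5 hpi, and 19.8, 12.1, 16.4 and 13.4 CPM at 4 hpi. The PBS groups did not overlap, and insulin and PBS overlapped at both times. The level of npsn fell with time in PBS by 0.89 (SE 0.28, edgeR adjusted p = 0.0472). The call did not hold without PBS replicate 1 (-0.57, edgeR adjusted p = 0.164) or replicate 3 (0.0650) at 0.5 hpi, or without any 1 PBS replicate at 4 hpi (0.0555 to 0.129). Without the 4 libraries that stand apart it fell by 0.56 and passed (edgeR adjusted p = 0.00692). With insulin at 4 hpi its change was 0.46 (SE 0.29, edgeR adjusted p = 0.239).

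For lyz (ENSDARG00000057789, chromosome 24) PBS replicates 1 to 4 held 52.0, 21.7, 22.2 and 18.0 CPM at 0.5 hpi, and 19.6, 17.7, 21.7 and 19.2 CPM at 4 hpi. The insulin replicates held 38.5, 36.1, 18.2 and 20.1 CPM at 0.5 hpi, and 36.3, 21.9, 23.3 and 24.0 CPM at 4 hpi. At 4 hpi the lowest insulin library was just above the highest PBS library, and at 0.5 hpi the groups overlapped. The changes were 0.43 (SE 0.33, edgeR adjusted p = 0.341) with insulin at 4 hpi and -0.55 (SE 0.33, edgeR adjusted p = 0.281) over time in PBS. Without the 4 libraries that stand apart the change over time in PBS was -0.09 (edgeR adjusted p = 0.639).

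Among the macrophage genes, mfap4 and CD68 rose with insulin at 4 hpi, while the changes of mpeg1 and csf1ra did not pass. The gene mfap4 (ENSDARG00000090783, chromosome 1) encodes a secreted protein with a fibrinogen-like domain whose promoter is used to label zebrafish macrophages. In PBS replicates 1 to 4 it stood at 5.41, 2.15, 3.95 and 2.89 CPM at 0.5 hpi and at 3.99, 2.45, 1.65 and 2.26 CPM at 4 hpi. In the insulin replicates it stood at 6.39, 4.99, 5.49 and 5.33 CPM at 0.5 hpi and at 4.43, 6.07, 4.66 and 8.03 CPM at 4 hpi. The insulin libraries at 4 hpi were all above the PBS libraries of that time, the nearest being insulin replicate 1 and PBS replicate 1. At 0.5 hpi the groups overlapped by PBS replicate 1 alone.

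With insulin at 4 hpi mfap4 rose from 2.59 ± 1.00 to 5.80 ± 1.66 CPM, a log2 change of 1.17 (SE 0.28, edgeR adjusted p = 0.00482), and it kept passing without each single library. At 0.5 hpi the change was 0.61 (SE 0.27), with an unadjusted p of 0.0367 and an edgeR adjusted p of 0.341. The difference between the effects was 0.56 (SE 0.39, edgeR adjusted p = 0.384), so the times were not shown to differ. These levels rest on 15 to 56 counts per library.

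The tables hold 13 genes named as copies of mfap4, and this family was looked up after the tables were seen. Of these, 7 were tested, and 4 of the 7 passed at 4 hpi, all higher in insulin, where 14% of all genes were called higher. Besides mfap4 itself these were MFAP4 (2 of 13) with 1.30 (edgeR adjusted p = 0.0123), MFAP4 (4 of 13) with 0.90 (0.0157) and MFAP4 (5 of 13) with 0.68 (0.0485). MFAP4 (2 of 13) passed without each single library. MFAP4 (4 of 13) did not pass without PBS replicate 4 or insulin replicate 4 at 4 hpi (edgeR adjusted p = 0.0586 and 0.0666, respectively), and MFAP4 (5 of 13) did not without 6 of the 8 libraries, all but PBS replicate 2 and insulin replicate 2 (0.0531 to 0.182). The changes of MFAP4 (1 of 13), MFAP4 (9 of 13) and MFAP4 (10 of 13) were 0.27, -0.18 and 0.63. Such copies can share reads, and how shared reads were counted is not given in the sources used here, so the split among the copies is uncertain.

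**Figure D4:**
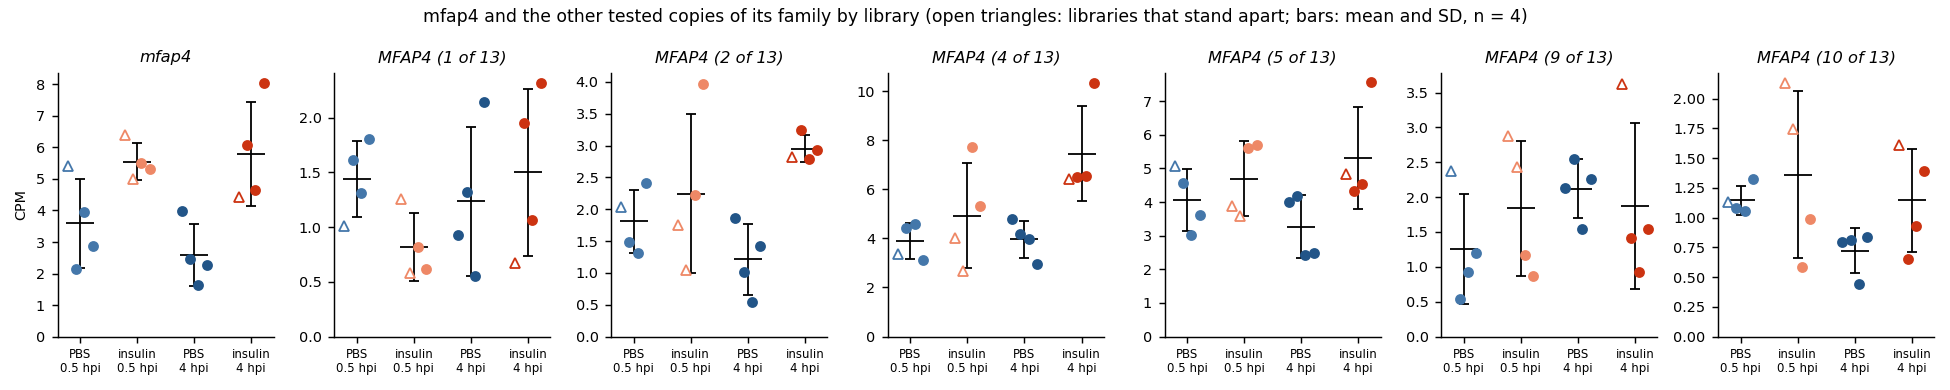
Level in CPM (vertical axes from 0) of mfap4 and the 6 other tested copies in the 4 libraries of each group, with mean and SD as bars and the libraries that stand apart as open triangles. For MFAP4 (2 of 13) the insulin libraries at 4 hpi lie at 2.80 to 3.25 CPM, above the PBS range of 0.55 to 1.86 CPM, and for MFAP4 (9 of 13) the groups overlap.

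CD68 (ENSDARG00000055504, chromosome 7) encodes macrosialin, a glycoprotein of late endosomes and lysosomes. PBS replicates 1 to 4 held 101.7, 61.6, 68.7 and 65.6 CPM at 0.5 hpi and 50.5, 52.2, 55.4 and 47.5 CPM at 4 hpi. The insulin replicates held 76.9, 57.9, 72.2 and 71.1 CPM at 0.5 hpi and 87.6, 69.3, 77.3 and 62.4 CPM at 4 hpi. The PBS libraries at 4 hpi lay below all 12 others, and the other 3 groups overlapped, with means of 74.4 ± 18.4 (PBS at 0.5 hpi), 74.1 ± 10.8 (insulin at 4 hpi) and 69.5 ± 8.15 (insulin at 0.5 hpi).

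With insulin at 4 hpi CD68 rose by a log2 of 0.53 (SE 0.14, edgeR adjusted p = 0.00975), and by 0.66 (adjusted p = 0.0139) within lane 5, where mfap4 rose by 1.09 (0.0359). The lane 5 insulin libraries are replicates 1 and 3, and replicate 1 stands apart. Of the insulin libraries at 4 hpi they were the highest pair for CD68 and the lowest pair for mfap4. CD68 fell with time in PBS by 0.53 (SE 0.14, edgeR adjusted p = 0.0171), but it did not pass without PBS replicate 1 at 0.5 hpi (-0.35, edgeR adjusted p = 0.0589) or without PBS replicate 4 at 4 hpi (0.0573). The difference between the insulin effects at 4 and 0.5 hpi was 0.63 (SE 0.20, edgeR adjusted p = 0.0540). It passed without PBS replicate 2 (0.0424) or replicate 4 (0.0291) at 0.5 hpi or insulin replicate 4 at 4 hpi (0.0434), and was 0.33 (0.0976) without the 4 libraries that stand apart.

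The gene mpeg1 (ENSDARG00000055290, chromosome 8) encodes a pore-forming protein of phagosomes and is the usual reporter of zebrafish macrophages. It had 7.17 ± 2.02 CPM in PBS and 6.71 ± 2.89 CPM in insulin at 0.5 hpi, and 4.38 ± 0.61 and 4.91 ± 0.42 CPM at 4 hpi. Its insulin range at 4 hpi (4.44 to 5.46 CPM) overlapped that of PBS (3.57 to 5.05 CPM), with a log2 change of 0.17 (SE 0.27, edgeR adjusted p = 0.673). All 4 later PBS libraries were below the earlier ones, with a change of -0.72 (SE 0.26, edgeR adjusted p = 0.0724) that passed without PBS replicate 4 at 0.5 hpi (0.0495). Of the 3 copies named for this gene, 2 were tested, and neither passed at 4 hpi.

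The receptor gene csf1ra (ENSDARG00000007889, chromosome 15) encodes the receptor for the ligands of csf1a, csf1b and il34, on which macrophages depend, and it also acts in xanthophores, the yellow pigment cells. It was the 1 marker besides ncf1 with all insulin libraries below all PBS libraries at 4 hpi, at 14.2, 11.3, 12.7 and 14.4 CPM in insulin and 14.5, 15.9, 17.6 and 14.5 CPM in PBS. The gap was small, and the change of -0.26 (SE 0.19, edgeR adjusted p = 0.320) did not pass. At 0.5 hpi the PBS range was 14.1 to 21.1 CPM and the insulin range 10.9 to 20.8 CPM, with a change of -0.05 (edgeR adjusted p = 0.952).

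Because csf1ra is shared with xanthophores, a list of 11 xanthophore genes was read beside it. At 4 hpi 1 of the 11 passed, where 28.6% of all genes did, and the median change of the 11 was -0.09. The 1 that passed was scarb1 (a lipoprotein receptor), which was higher with insulin by 0.88 (SE 0.14, edgeR adjusted p = 0.000155). The summed level of the 11 ran from 409.1 to 479.1 CPM in PBS and from 265.7 to 637.4 CPM in insulin at 4 hpi. Over time in insulin embryos scarb1 rose by 0.54 (edgeR adjusted p = 0.0369) and slc2a15a, a xanthophore sugar transporter gene, fell by 0.63 (0.0260). These calls did not hold without 6 of the 8 insulin libraries, taken singly, for either gene (edgeR adjusted p from 0.05003 to 0.126 for scarb1 and from 0.0523 to 0.0773 for slc2a15a), these being all but insulin replicate 3 at 0.5 hpi and replicate 4 at 4 hpi for scarb1, and all but replicate 1 of each time for slc2a15a. Without the libraries that stand apart scarb1 did not pass over time (0.44, edgeR adjusted p = 0.0945). The part of xanthophores in the level of csf1ra was not tested.

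The pan-leukocyte genes are coro1a, a coronin that organizes actin in migrating leukocytes, and lcp1, the actin-bundling L-plastin. For coro1a (ENSDARG00000054610, chromosome 3) PBS replicates 1 to 4 held 19.3, 12.7, 12.8 and 11.6 CPM at 0.5 hpi and 9.58, 9.48, 7.70 and 10.2 CPM at 4 hpi. The insulin replicates held 15.8, 16.0, 8.30 and 9.67 CPM at 0.5 hpi and 23.5, 12.7, 11.6 and 15.8 CPM at 4 hpi. At 4 hpi every insulin library was above every PBS library, and insulin replicate 1 was the highest of all 16. The change at 4 hpi was 0.78 (SE 0.24, edgeR adjusted p = 0.0231). It did not pass without insulin replicate 1 (0.53, edgeR adjusted p = 0.0965), PBS replicate 2 (0.0501) or PBS replicate 3 (0.0655), nor within lane 5 (0.93, adjusted p = 0.0547). Without the 4 libraries that stand apart it was 0.53 and passed (edgeR adjusted p = 0.00594).

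The change of coro1a over time in PBS was -0.61 (SE 0.24, edgeR adjusted p = 0.102), with the later libraries all below the earlier ones. For lcp1 (ENSDARG00000023188, chromosome 9) PBS replicates held 5.98 to 8.09 CPM and insulin replicates 8.34 to 10.6 CPM at 4 hpi, which do not overlap, with a change of 0.35 (SE 0.21, edgeR adjusted p = 0.214). At 0.5 hpi lcp1 stood at 8.60 ± 3.14 CPM in PBS and 8.64 ± 1.84 CPM in insulin, and its change of 0.00 was the smallest of the 10 markers.

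At 4 hpi 8 of the 10 markers thus had no overlap between insulin and PBS (6 above, 2 below), where 33.5% of all genes had none. For the PBS times 6 of 10 had none (1 above, 5 below), against 20.7% of all genes. At 0.5 hpi and over time in insulin 0 of the 10 were free of overlap, against 6.10% and 10.1% of all genes. Lane and group were partly tied, since the PBS libraries at 0.5 hpi came from lane 2 or no named lane and those at 4 hpi mostly from lane 5. Among the libraries with no lane, 1 against 1 at 4 hpi, the log2 change with insulin was -1.33 for ncf1 and 0.46 for CD68. It was 0.61 for mfap4 and 0.41 for coro1a. The rises of CD68, mfap4 and coro1a were smaller there than over all libraries (0.53, 1.17 and 0.78). The change over time in PBS was 1.23 for ncf1, -0.73 for CD68, -1.14 for mpx and -1.31 for npsn there. These values start from PBS replicates 1 and 4 of 0.5 hpi, and replicate 1 stands apart. That library held 101.7 CPM of CD68, 42.4 CPM of mpx and 33.4 CPM of npsn, above the other PBS libraries of 0.5 hpi. Effect sizes alone are given, since the 4 hpi groups held 1 library each.

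The libraries that stand apart were also high for the markers, which is given without a test. In PBS at 0.5 hpi replicate 1 was above the other 3 libraries for 10 of 10 markers, by a median log2 of 0.76. The pair of insulin libraries at 0.5 hpi was above the other pair for 7 of 10, by a median of 0.82. Insulin replicate 1 at 4 hpi was above the other 3 for 7 of 10 and below them for 1, mfap4, by a median of 0.35. Of all genes tested, 37.2%, 26.7% and 37.9% were above in these same groups, in that order, and 33.9%, 27.6% and 32.8% were below. The genes mpx, lyz, npsn, coro1a and lcp1 were high in these libraries in all 3 groups. What set these libraries apart was not tested.

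**Figure D5:**
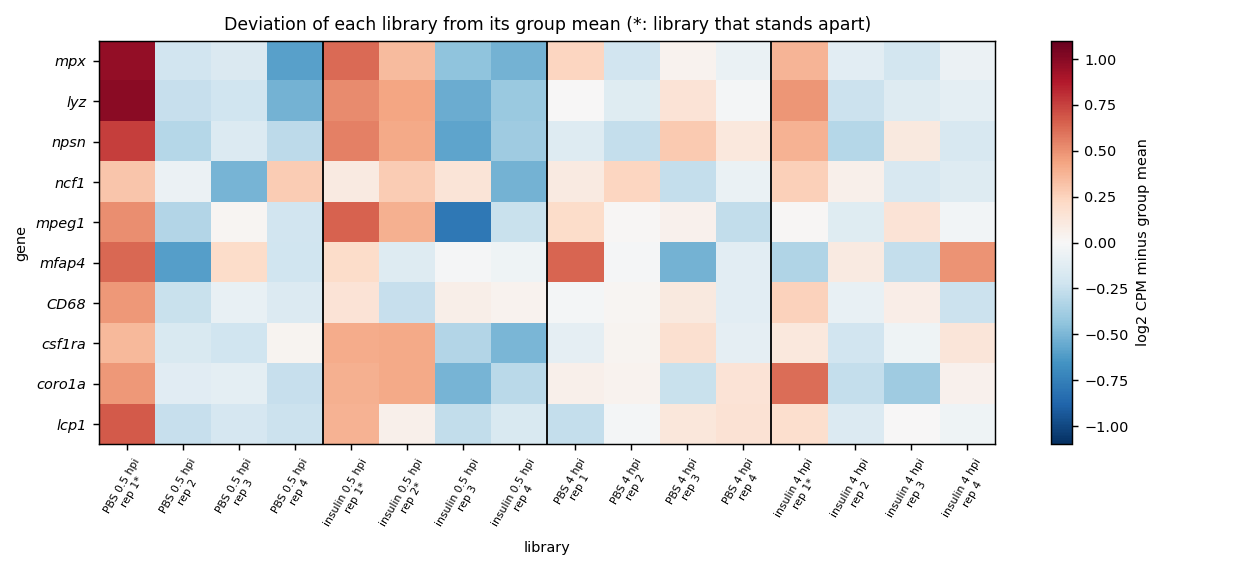
Log2 CPM of each marker gene (rows) in each of the 16 libraries (columns) minus the mean of its group, as colour from -1.1 (blue) to 1.1 (red), with libraries that stand apart marked by an asterisk. PBS replicate 1 at 0.5 hpi is above its group mean for all 10 genes, and the PBS libraries at 4 hpi, none of which stands apart, show mostly pale colours except for mfap4.

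The summed level of mpx, lyz, npsn and ncf1 was 133.7 CPM in PBS replicate 1 and 60.6, 62.5 and 54.1 CPM in the other PBS libraries at 0.5 hpi. It was 98.7 and 89.4 CPM in insulin replicates 1 and 2 against 48.9 and 49.7 CPM in replicates 3 and 4 of that time. At 4 hpi it was 51.7 to 57.2 CPM in PBS, 82.2 CPM in insulin replicate 1 and 53.4 to 57.4 CPM in the other insulin libraries. The sums with ncf1 thus overlapped between PBS and insulin at 4 hpi. Without ncf1, which was lower with insulin, the sum of mpx, lyz and npsn at 4 hpi did not overlap. Leaving ncf1 out was a choice made from these same values, so this separation is a description only. The nearest libraries were close for lyz (21.66 CPM in PBS, 21.88 CPM in insulin) and mpx (12.9 and 13.05 CPM), and npsn overlapped. The range of the sum of mpx, lyz and npsn follows. It was 36.3 to 46.4 CPM in PBS and 47.9 to 75.8 CPM in insulin. Of single genes tested, 33.5% showed no overlap in that comparison, and mpx, lyz and npsn did not pass singly. The summed level of mpeg1, mfap4, CD68 and csf1ra was 67.8 to 79.2 CPM in PBS and 89.6 to 111.2 CPM in insulin at 4 hpi, without overlap, most of it CD68. At 0.5 hpi that sum overlapped between PBS (84.0 to 138.2 CPM) and insulin (91.9 to 113.9 CPM).

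The granule genes were more alike across the libraries of a group with those that stand apart than without them. As deviations from the group mean, mpx and lyz had a Pearson correlation of 0.97 over the 16 libraries and 0.68 over the 12 that do not stand apart, and lyz and npsn 0.95 and 0.63. For mpx and npsn it was 0.88 over 16 libraries and 0.05 over 12. For ncf1 the values were lower, at 0.41 with mpx over 16 libraries and -0.42 over 12, and at 0.40 and -0.87 with lyz. The drop was not particular to the granule genes. It was seen for mpx and coro1a (0.83 over 16 libraries, 0.18 over 12) and for npsn and lcp1 (0.905 and 0.72). It was not seen for every pair, as for mpeg1 and CD68 (0.35 and 0.45). These are descriptions over libraries that share 4 group means and the scaling. The genes whose deviations were most like the mean of mpx, lyz, npsn and ncf1 over 16 libraries were CR812464.1 (0.975), stac3 (0.971), gpib (0.966), ZNF337 (1 of 39) (0.966) and ca6 (0.965). Over the 12 libraries their values were -0.01, 0.31, -0.58, 0.16 and 0.40. For mpeg1, mfap4, CD68 and csf1ra they were arpc1b (0.912), trpv6 (0.888), nars (0.883), myoz2b (0.882) and s100b (0.876), with 0.24 to 0.57 over the 12 libraries.

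Further neutrophil genes were read from a list of 11 tested genes, which included oxidase subunits. With insulin at 4 hpi 3 of the 11 were lower and 0 higher, where 14.6% of all genes were lower, with a median change of -0.25. These were mmp13a (-3.01, SE 0.23, edgeR adjusted p = 2.23e-07) and mmp9 (-2.34, SE 0.29, adjusted p = 6.59e-05), matrix metalloproteinases that other injured cells also make, and alox5ap (-1.53, SE 0.31, adjusted p = 0.00151), which serves leukotriene synthesis. Over time in PBS 2 were higher and 1 lower, where 7.96% of all genes were higher and 5.65% lower. In that comparison mmp13a rose by 3.12 (edgeR adjusted p = 9.85e-07), from 16.6 ± 1.39 to 144.1 ± 45.7 CPM, and mmp9 by 2.42 (0.000158). In insulin at 4 hpi mmp13a had 17.8 ± 2.50 CPM, and mmp9 had 36.5 ± 14.04 CPM there beside 34.7 ± 8.99 CPM in PBS at 0.5 hpi.

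Further macrophage genes were read from a list of 18 tested genes, of which 1 was higher and 4 lower with insulin at 4 hpi, where 28.6% of all genes passed, a share near that of the list. The lysosomal protease gene ctsl.1 fell by 1.26 (SE 0.17, edgeR adjusted p = 3.60e-05) and mertk, a receptor for dying cells, by 0.71 (SE 0.16, adjusted p = 0.00235). The transcription factor gene mafbb fell by 0.45 (edgeR adjusted p = 0.0378) and the progranulin gene grn1 rose by 0.70 (0.0364), but each failed to pass without 4 of the 8 libraries at 4 hpi taken singly (0.0642 to 0.122 for mafbb and 0.0700 to 0.168 for grn1), nor did grn1 without the libraries that stand apart (0.45, 0.0924). These were PBS replicates 2 and 4 and insulin replicates 2 and 3 for mafbb, and PBS replicates 1, 3 and 4 and insulin replicate 1 for grn1. Over time in PBS 3 were higher and 0 lower, where 7.96% of all genes were higher and 5.65% lower. In that comparison ctsl.1 rose by 0.67 (edgeR adjusted p = 0.0111) and mertk by 0.50 (0.0334). Without PBS replicate 2 at 4 hpi ctsl.1 did not pass (0.0543), and mertk did not without PBS replicates 1, 2 or 3 at 0.5 hpi or 1 or 2 at 4 hpi (0.0603 to 0.127). The median change of the 18 at 4 hpi was -0.08.

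A list of 17 genes of all leukocytes had 4 higher and 0 lower at 4 hpi, where 14% of all genes were higher, with a median change of 0.29, and 0 higher and 4 lower over time in PBS, where 5.65% of all genes were lower, with a median of -0.34. Those higher with insulin were both gene IDs named ptpn6, a phosphatase of blood cells, with 1.56 (edgeR adjusted p = 0.00101) and 1.12 (0.00975), hcls1, an actin regulator, with 0.52 (0.00839), and wasa, of the WASP family, with 0.82 (0.0494). The call for wasa did not hold without 6 of the 8 libraries taken singly, all but insulin replicates 1 and 3 (edgeR adjusted p from 0.0665 to 0.137). Over time in PBS hcls1 fell by 0.73 (edgeR adjusted p = 0.00164) and the second ptpn6 ID by 1.03 (0.0284), the latter not without PBS replicates 1, 2 or 4 at 0.5 hpi or 1, 2 or 3 at 4 hpi (0.0538 to 0.104). Reads of 2 IDs with 1 name may be shared, so their split is uncertain.

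In a list of 8 growth factors and receptors of these cells, 3 were lower and 0 higher with insulin at 4 hpi, where 14.6% of all genes were lower and 14% higher. Those lower were the 2 gene IDs named il34 (-1.79 and -1.58, edgeR adjusted p = 0.000313 and 0.00108) and CSF3, the granulocyte growth factor (-2.51, adjusted p = 0.000473). Reads of the 2 il34 IDs may be shared, so they may not count as separate genes. The same list over time in PBS had 3 higher, again CSF3 and both il34 IDs, and 0 lower. Of all genes, 7.96% were higher and 5.65% lower there. In that comparison CSF3 rose by 2.33 (edgeR adjusted p = 0.00163), from 0.59 ± 0.21 to 3.04 ± 1.48 CPM, and the first il34 ID by 1.73 (0.000949). The other ligand genes, csf1a and csf1b, had changes of 0.32 and 0.07 with insulin at 4 hpi, which did not pass (edgeR adjusted p = 0.304 and 0.783). For the receptor genes csf1ra, csf1rb and csf3r the values were -0.26, -0.08 and -0.39, and none passed (edgeR adjusted p from 0.245 to 0.847).

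Of 7 tested chemokine and receptor genes, 1 was lower and 1 higher with insulin at 4 hpi, where 28.6% of all genes passed. The chemokine gene cxcl-c1c had 42.1 ± 22.01 CPM in PBS against 4.49 ± 1.94 CPM in insulin (-3.21, SE 0.55, edgeR adjusted p = 0.000973), and the receptor gene cxcr4b, which holds leukocytes in their niche, was higher by 0.74 (adjusted p = 0.00584). Over time in PBS cxcl-c1c rose by 2.91 (edgeR adjusted p = 0.00350) and cxcr4a fell by 0.96 (0.00183). Of 9 myeloid transcription factor genes 0 were higher and 2 lower with insulin at 4 hpi, where 14% of all genes were higher and 14.6% lower. Here cebpb fell by 2.07 (edgeR adjusted p = 2.82e-05) and cebpa by 0.43 (0.0109), the latter not without PBS replicate 2 (0.0597). The others did not pass and went both ways. They were spi1b (0.39), gfi1aa (0.42), gfi1ab (0.15), spi1a (-0.15), irf8 (-0.74), myb (-0.39) and gfi1b (-0.12). Mean levels were 151.6 CPM for cebpb and 64.1 CPM for cebpa, but 1.94 (gfi1b) to 9.55 CPM (myb) for these others. Which cells of the whole embryo gave the cebpb and cebpa levels was not tested. In insulin embryos over time cebpb fell by 1.37 (edgeR adjusted p = 0.00598), and in PBS irf8, a macrophage fate gene, rose by 0.96 (0.0410) but not without any single 1 of the 8 PBS libraries (0.0536 to 0.114).

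Markers of other blood cells were read in the same fit. Of all genes tested, 14% were higher and 14.6% lower with insulin at 4 hpi, and 0.166% and 0.222% at 0.5 hpi. Over time these shares were 7.96% and 5.65% in PBS and 1.17% and 1.75% in insulin. Of 17 erythroid genes 0 were higher and 1 lower with insulin at 4 hpi, sptb (-0.58, edgeR adjusted p = 0.000378), a spectrin gene, which also fell over time in insulin (-0.45, 0.0184) but not without insulin replicates 1 or 2 at 0.5 hpi or 2 or 4 at 4 hpi (0.0533 to 0.0624), nor without the libraries that stand apart (0.109). The summed erythroid level was 2728 to 3264 CPM in PBS and 2061 to 6084 CPM in insulin at 4 hpi. Of 5 thrombocyte genes thbs1b fell by 0.84 (edgeR adjusted p = 1.42e-05) at 4 hpi and rose by 0.56 (0.00143) over time in PBS. The others passed in neither comparison. Their changes at 4 hpi were -0.09 for mpl, 0.33 for gp1bb, -0.23 for fn1b and 0.08 for GP9. Over time in PBS they were -0.14, -0.39, 0.10 and 0.16 in that order. Mean levels were 279.8 CPM for thbs1b and 387.3 CPM for fn1b, but 1.3, 2.6 and 2.0 CPM for mpl, gp1bb and GP9. Of 7 lymphoid genes pax5 was lower with insulin at 4 hpi (-0.61, edgeR adjusted p = 0.0436), not without PBS replicates 2, 3 or 4 or insulin replicates 1, 2 or 3 (0.0619 to 0.144) or the libraries that stand apart (0.0557), and ccr9a fell over time in PBS (-1.47, 0.0172), not without PBS replicate 4 at 4 hpi (0.0627). Of 4 mast cell and eosinophil genes, epdl1 was lower with insulin at 0.5 hpi (-0.66, edgeR adjusted p = 0.00626) and gata2a was higher at 4 hpi (0.59, 0.0109), the latter not without PBS replicate 1 (0.0514). Lymphoid genes with too few counts to be tested were cd8a, cd79a, cd4, zap70 and il7r. Their highest counts in any library were 1, 7, 8, 10 and 11, in that order. The part of these cells in the levels of the phagocyte markers was not tested. Within lane 5, 16 of the 30 values called at 4 hpi passed, and besides coro1a those that did not were alox5ap, cebpa, cxcr4b, gata2a, grn1, hcls1, the second il34 ID, mafbb, mertk, MFAP4 (4 of 13), MFAP4 (5 of 13), pax5 and wasa (edgeR adjusted p from 0.0547 to 0.360 with coro1a).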

How the data were processed

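The deposited counts, whole numbers per gene in 1 table per library, were used as the authors made them, on the Zv9 build per the submitters' processing notes. No source used here names the aligner, the counting tool, the annotation or the use of strand. Lanes are those named in the file headers. The members and lists were chosen with earlier results of these data known.

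Genes were kept with filterByExpr over the 4 groups, scaled with TMM, and fitted in 1 robust quasi-likelihood model (glmQLFit, glmQLFTest) with 12 residual degrees of freedom, with R 4.3.3 and edgeR 4.0.16. Tests were two-sided. The pools of a group were treated as replicates, and nothing says whether they came from separate clutches. The p-values thus set a difference between groups against the spread between these pools. Log2 CPM for deviations used a prior count of 2. All 10 members are reported. From each other list, genes that passed were named, up to 4 by smallest p at 4 hpi and up to 2 elsewhere, with rac2, the most abundant, for the oxidase list, where no gene besides ncf1 passed. The oxidase subunits cyba, cybb and ncf4, csf1a, csf1b, csf1rb and csf3r were added after their values were seen. So were the untested lymphoid genes, the copies of mfap4 and mpeg1, and the sum of mpx, lyz and npsn without ncf1. The same holds for the genes of the thrombocyte and transcription factor lists that did not pass. Genes most like the markers had a symbol and a mean of at least 10 CPM, and the 5 with the highest correlation were named. The model was tested on simulated counts. Alternatives were DESeq2 1.42.0 size factors and Wald test, limma 3.58.1 voom, library totals, other filters, only the groups compared and a replicate block. Others left out each library or the libraries that stand apart, or gave the latter a term. The pair of PBS replicates 2 and 3 of 0.5 hpi was also summed. Libraries of lane 5 or of no lane were fitted alone. Lists of neutrophil, macrophage, leukocyte, oxidase, growth factor, chemokine, transcription factor, xanthophore, erythroid, lymphoid, thrombocyte and mast cell genes were read by counts, with no set test. An item withheld for evaluation is not reported here, and the lists were counted without it.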

Additional observations from a re-analysis of the deposited data

Results flagged for a closer look

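Of 40 groups of 4 values tested for a sample far from the others, 5 had such a sample. The nominal rate of this test is about 1 in 20 for independent groups. The markers were read in the same libraries, so the 40 are not independent and the 5 cannot be set against that rate. All 5 were highest values in a library that stands apart. In PBS replicate 1 at 0.5 hpi these were coro1a at 19.3 CPM (next 12.8), lcp1 at 13.3 CPM (next 7.24), lyz at 52.0 CPM (next 22.2) and npsn at 33.4 CPM (next 17.6). In insulin replicate 1 at 4 hpi it was lyz at 36.3 CPM (next 24.0).

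The insulin effect differed between 4 and 0.5 hpi by edgeR's interaction test for 14 of the genes named, given as the log2 effect at 4 hpi minus that at 0.5 hpi. Among the markers this was ncf1 (-1.20, edgeR adjusted p = 0.0148). The other genes were named here because they passed this same test, up to 2 per list, so their number was set by that rule. Of all genes tested, 9.59% passed it. Lower differences were found for cxcl-c1c (-3.26), CSF3 (-2.80), mmp13a (-2.41), il34 (-2.08), mmp9 (-1.66), myb (-0.85), thbs1b (-0.79) and sptb (-0.49), with edgeR adjusted p from 0.000375 to 0.0396. Higher ones were found for ptpn6 (1.73), lgals9l1 (0.98), scarb1 (0.91), cxcr4b (0.83) and epdl1 (0.45), with edgeR adjusted p from 0.00665 to 0.0487. Without the 4 libraries that stand apart mmp9 (-0.97, edgeR adjusted p = 0.2075), mmp13a (-1.75, 0.0526) and sptb (-0.30, 0.152) did not pass.

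With 1 library left out, some of these did not pass by edgeR. For cxcr4b, myb and sptb this was so for 12 of the 16 libraries, for epdl1 for 15 of 16 (all but PBS replicate 1 at 0.5 hpi), and for lgals9l1 for 7 (PBS replicate 3 and insulin replicate 1 or 3 of 0.5 hpi, PBS replicate 2, 3 or 4 and insulin replicate 1 of 4 hpi). The adjusted p reached 0.104 for cxcr4b, 0.0810 for myb, 0.0843 for sptb, 0.106 for epdl1 and 0.0720 for lgals9l1. The call held, singly, without any of PBS replicates 1 and 4 or insulin replicate 1 of 0.5 hpi, or insulin replicate 1 of 4 hpi, for cxcr4b, without PBS replicate 1 and insulin replicate 4 at 0.5 hpi and PBS replicate 2 and insulin replicate 1 at 4 hpi for myb, and without PBS replicate 4 and insulin replicate 4 at 0.5 hpi and PBS replicate 4 and insulin replicate 3 at 4 hpi for sptb. CSF3 did not pass without insulin replicate 1 or 4 at 0.5 hpi (0.0501 and 0.0508, respectively), nor cxcl-c1c without insulin replicate 3 at 0.5 hpi (0.0515).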

How the results depend on the processing

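No value that passed a test in either fit changed sign under any alternative. Of 2507 values of single genes, 64 had another sign where neither fit passed. Of 1115 values of markers, 1057 stayed on the same side of the threshold, 31 no longer passed and 27 newly passed, and the cause was not tested. Most of the 1057 are values that were not called to begin with. The 31 come from the 9 called values of markers. Of these 9, npsn over time in PBS kept its call least often (10 of 21 alternatives). The difference between effects for ncf1 kept its call most often (27 of 28). A change of sign where neither fit passed counts among the 1057.

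The count of markers was 0 in all 5 comparisons among the libraries with no lane, where each 4 hpi group has 1 library, assumed to vary like the others. Elsewhere it was 0 at 0.5 hpi under each alternative. For the difference between effects (1 marker) it was 2 with DESeq2 size factors, the Wald test (DESeq2) or 10 CPM in 4 libraries, 3 with the replicate block or with the pair summed and the libraries that stand apart left out, 4 with those libraries left out and 5 with a term for them. Without the 4 libraries coro1a (1.01, adjusted p = 0.00417), mpx (0.68, 0.0363) and npsn (0.78, 0.0231) passed there by edgeR. Over time in PBS (4 markers) it was 2 with no filter, 6 with only the groups compared, where coro1a (0.0375) and mpeg1 (0.0408) also passed, and 5 without the libraries that stand apart, where coro1a (0.0426) did, and over time in insulin (0 markers) 1 with the term. With only the groups compared mpx (0.0303) and lyz (0.0428) passed at 4 hpi, as did csf1ra (-0.39, 0.0326) with the term. At 10 CPM mfap4 and mpeg1 have no value. The count of all genes called also moved with the processing, and it is given below for some of these alternatives only. The marker counts are thus not set beside such shares, and are no result about the markers.

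Genes called at 0.5 hpi (84 of all) were 480 with the Wald test, 39 with voom, 131 at 10 CPM, 0 with only the groups compared, 2844 without the libraries that stand apart, 493 with a term for them, 11 with the pair summed, 2360 with both and 0 with no lane. At 4 hpi (6193) they were 2952 within lane 5 and 1 with no lane. Over time in insulin (633) they were 266 with only the groups compared, 1057 without the libraries that stand apart, 1271 with the term, 962 with both and 0 with no lane. For the difference between effects (2076) they were 3448 with the term and 0 with no lane, and over time in PBS (2946) 1926 with the pair summed and 9 with no lane.

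Leaving out each library in turn gave 10 to 987 genes and 0 to 0 markers at 0.5 hpi, 4517 to 6015 and 3 to 4 at 4 hpi, 336 to 565 and 0 to 0 over time in insulin, 1455 to 2940 and 1 to 2 for the difference between effects, and 1704 to 4226 and 1 to 5 over time in PBS. The lowest and highest counts of genes at 0.5 hpi were without PBS replicates 2 and 1. Of the 9 called values of markers, 5 passed without each single library, and of the 57 called values of other named genes 34 did.

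Scaling by library totals moved the share of higher calls from 42.9% to 71.6% at 0.5 hpi, from 49.0% to 38.8% at 4 hpi and from 58.5% to 75.3% over time in PBS. For the difference between effects it moved the calls from 830 higher and 1246 lower to 501 and 1692, or 22.8% higher, and the median of all genes from 0.01 to -0.10. Same-numbered libraries had correlations of their deviations from -0.156 to 0.247. PBS replicate 1 and insulin replicate 2 at 0.5 hpi, of unlike number, had 0.257. Whether the replicate numbers pair the samples cannot be told from these values, since libraries that stand apart enter them. The fit with the replicate block called 103 genes at 0.5 hpi, 6490 at 4 hpi, 2278 for the difference between effects, 3214 over time in PBS and 669 over time in insulin, with 6 markers over time in PBS, where coro1a (0.0361) and mpeg1 (0.0497) passed. Counting error at the mean level was 4.26% for CD68 and up to 16.8% for mfap4, beside a fitted spread between pools of 14.7% to 30.9% over the markers.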
